A study of Mus musculus with 35 samples.

Results

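Sulphate import and sulphation were followed in the small intestine through 8 genes: the transporters Slc13a1, Slc26a2, Slc26a3 and Slc26a6, the synthases Papss1 and Papss2, and the cytosolic sulphotransferases Sult1b1 and Sult1d1. They were taken by name, as every probeset of the array (a set of short probes that reads 1 transcript) annotated to 1 of these genes alone, which gave 18 probesets for 8 of the 18193 named genes. Of the 18 probesets, 16 were expressed, that is, had a mean above 32 (log2 of 5) in at least 1 of the 8 groups of mice. The exceptions were 1453151_at of Slc26a3 and 1421988_at of Papss2, and every gene had at least 1 expressed probeset. Where a gene had several, the expressed probeset of highest mean, called the lead probeset, is given unless another is named.

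Whole-genome Affymetrix mouse arrays were hybridised with small intestinal RNA of 35 male mice, each on its own array and from the full length of the organ, to ask which genes respond to acute activation of PPARα, the fatty acid-activated nuclear receptor encoded by Ppara, and need the receptor to do so. PPARα-null mice (129S4/SvJae) and wild-type mice (129S1/SvImJ) were 4 months old, had eaten an AIN76A diet with olive oil in place of corn oil for 2 weeks, and received a gavage of 400 μl after a fast of 4 h, with tissue taken 6 h later. WY14643, a synthetic PPARα agonist, was given to 4 PPARα-null and 4 wild-type mice. EPA, as trieicosapentaenoin, was given to 5 PPARα-null and 5 wild-type mice, DHA, as tridocosahexaenoin, to 4 PPARα-null and 5 wild-type mice, and OA, as triolein, to 4 PPARα-null and 4 wild-type mice. The 3 fats are triacylglycerols made of a single fatty acid each, whereas WY14643 was suspended in carboxymethyl cellulose without fat, so a difference between WY14643 and OA is also a difference between a gavage without fat and a gavage of fat. Genotype and substrain cannot be told apart, the receptor was missing from the whole animal, and no mice without a gavage were analysed here. In RNA of a whole intestine, fewer cells of a type and less RNA per cell cannot be told apart either.

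All 11 enterocyte markers on the array were expressed, among them Vil1 and Fabp2, and their summed level spanned 16.64 to 16.88 on the log2 scale over the 35 arrays. The sum adds linear values, so the highest markers dominate it. Single markers spanned more, from Vil1 at 12.87 to 13.17 to Apob at 8.52 to 11.20. The labels were checked on the probeset shared by Cyp4a10 and Cyp4a31, fatty acid hydroxylases that depend on PPARα. It read 1.36 to 2.50 on 15 PPARα-null arrays and 8.15 to 12.75 on 17 wild-type arrays, but 9.91 in PPARα-null EPA replicate 5, 10.61 in PPARα-null OA replicate 1 and 1.81 in wild-type EPA replicate 5. The 3 probesets of Ppara overlapped between the genotypes over the 4 agonists together. Within EPA none overlapped once the arrays in doubt were set aside. On these probesets PPARα-null EPA replicate 5 read 10.29, 7.83 and 7.93, on the wild-type side. Wild-type EPA replicate 5 read 8.14, 4.82 and 5.54, on the PPARα-null side. PPARα-null OA replicate 1 read 10.02, 7.27 and 7.41, above every other OA mouse. The other OA mice overlapped between genotypes on some of these probesets. The position of the probesets relative to the deleted part of the gene is not given in the sources used here. The 3 arrays that went against their genotype label were kept under it, and each result that involves the EPA groups or PPARα-null OA is stated without them where its call changed.

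Inorganic sulphate is taken up from the gut lumen across the brush border, largely by the sodium-coupled transporter Slc13a1, and crosses other membranes by anion exchangers of the Slc26 family. Inside the cell the synthases Papss1 and Papss2 join it to ATP to make 3'-phosphoadenosine 5'-phosphosulphate (PAPS), the activated sulphate that all sulphotransferases use. Cytosolic sulphotransferases pass it to phenols, hormones, catecholamines and drugs, a phase II reaction of enterocytes, and Golgi sulphotransferases pass it to mucins and proteoglycans. Sult1b1 and Sult1d1 are neighbours on mouse chromosome 5, with no other protein-coding gene between them in the RefSeq annotation (GRCm38.p6). PPARα binds DNA with its partner RXR at repeats of the hexamer AGGTCA. The promoters of 6 of the 8 members were therefore searched for it. Of these 9 promoters 4 are shown here, with each AGGTCA, on either strand, in capitals. They are the 3 that hold the hexamer, chosen for that, and the promoter of Sult1d1, the neighbour of Sult1b1, which does not. Each run holds 250 bases before and 50 bases from the annotated start, on the strand of the gene, from RefSeq GRCm38.p6.
Sult1b1 (chr5:87538146-87538445, minus strand): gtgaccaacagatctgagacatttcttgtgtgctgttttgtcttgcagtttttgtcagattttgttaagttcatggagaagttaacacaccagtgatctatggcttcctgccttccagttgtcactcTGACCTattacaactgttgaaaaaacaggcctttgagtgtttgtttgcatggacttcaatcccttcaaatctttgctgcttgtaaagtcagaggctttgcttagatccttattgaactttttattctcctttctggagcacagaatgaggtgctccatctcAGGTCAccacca
Sult1d1 (chr5:87568957-87569256, minus strand): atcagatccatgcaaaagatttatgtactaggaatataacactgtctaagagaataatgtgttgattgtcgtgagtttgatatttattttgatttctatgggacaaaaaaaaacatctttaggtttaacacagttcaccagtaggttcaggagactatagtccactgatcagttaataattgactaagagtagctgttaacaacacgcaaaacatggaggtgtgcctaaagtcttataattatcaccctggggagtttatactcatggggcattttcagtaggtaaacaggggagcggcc
Slc26a3 (chr12:31437969-31438268, plus strand): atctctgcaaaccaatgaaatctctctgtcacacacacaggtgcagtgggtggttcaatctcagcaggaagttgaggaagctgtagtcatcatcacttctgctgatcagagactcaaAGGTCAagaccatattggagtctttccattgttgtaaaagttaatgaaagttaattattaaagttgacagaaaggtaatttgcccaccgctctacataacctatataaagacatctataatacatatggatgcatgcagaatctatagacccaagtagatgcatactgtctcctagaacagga
Papss2 (chr19:32619755-32620054, plus strand): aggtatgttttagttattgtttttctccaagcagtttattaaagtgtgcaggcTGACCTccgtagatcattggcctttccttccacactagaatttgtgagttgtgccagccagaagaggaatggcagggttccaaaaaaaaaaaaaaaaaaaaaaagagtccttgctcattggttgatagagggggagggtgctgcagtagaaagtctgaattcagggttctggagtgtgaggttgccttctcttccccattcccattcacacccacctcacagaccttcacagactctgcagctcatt
The hexamer stood in 3 of the 9 promoters that RefSeq gave for 6 of the 8 members, namely those of Sult1b1, Slc26a3 and Papss2 printed here, and in 16.3% of all 32851 mouse promoters of this length. The promoter of Sult1d1, the other annotated promoters of Sult1b1 and Papss2, both of Papss1 and that of Slc26a6 had none. None of the 9 promoters searched had 2 hexamers in direct repeat with 1 base between them (AGGTCANAGGTCA, either strand), which 0.0396% of all promoters had. The letters of a TATA box (TATAAA, either strand) stood in the promoters of Sult1d1 and Slc26a3, and in 13.6% of all promoters. In Slc26a3 they lie before the annotated start, on the strand of the gene. In Sult1d1 they lie after the annotated start and on the opposite strand, so they are not read as a TATA box. These are matches of letters in short windows and say nothing of binding in these mice.

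**Figure D1:**
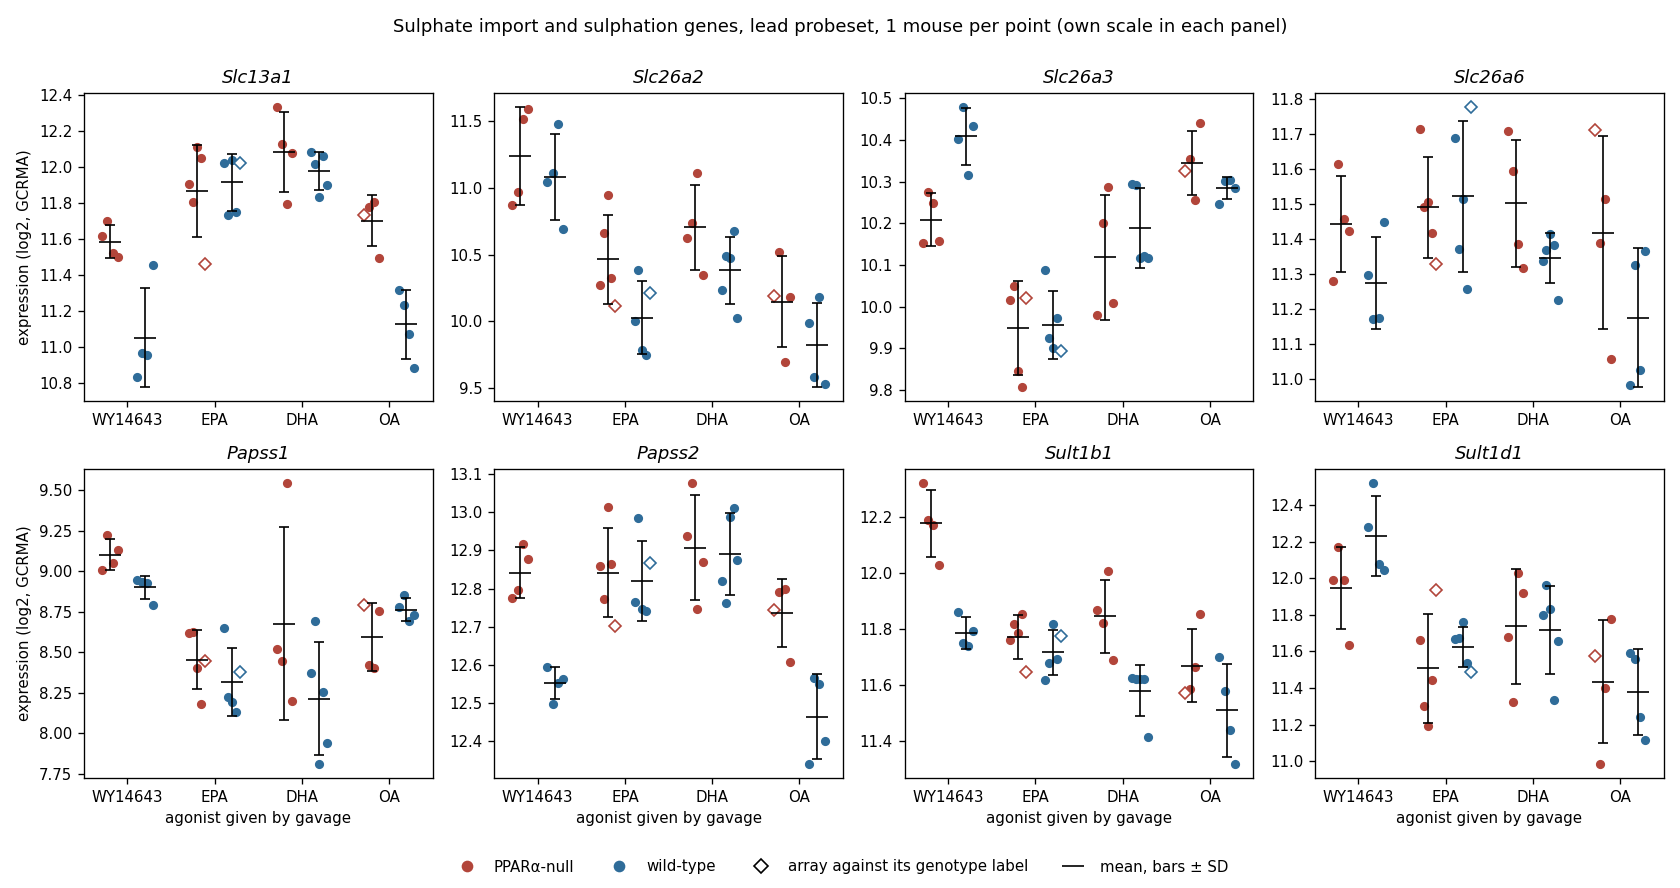
Expression (log2, GCRMA) of the lead probeset of each of the 8 genes by agonist, with 1 point per mouse, PPARα-null in red left of wild-type in blue, and black marks for the mean ± SD of each group (n = 4 or 5). Slc13a1 and Papss2 were lowest in wild-type mice given WY14643 or OA, Slc26a2, Sult1b1 and Sult1d1 had their highest means after WY14643, and Slc26a3 had its lowest means after EPA (open diamonds, the 3 arrays that went against their genotype label).

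Slc13a1, the sulphate importer of the brush border, was higher in PPARα-null than in wild-type mice after WY14643 and after OA, and differed by less than the spread between mice after EPA and DHA. After WY14643 it read 11.62, 11.70, 11.52 and 11.50 in PPARα-null mice, against 10.83, 10.97, 10.96 and 11.46 in wild-type mice on the log2 scale. After OA it read 11.73, 11.78, 11.81 and 11.49 in PPARα-null mice, against 11.32, 11.23, 11.07 and 10.89 in wild-type mice. In both cases every PPARα-null mouse lay above every wild-type mouse, and wild-type replicate 4 after WY14643 came closest to them.

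The difference was 0.53 (SE 0.13, 1.45-fold) after WY14643, with an adjusted p of 0.00797 in limma's moderated test over all expressed probesets, and 0.58 (SE 0.13, 1.49-fold) after OA, with an adjusted p of 0.0414. Its second probeset, 1430804_at, gave 1.04 (SE 0.33, 2.06-fold, adjusted p = 0.0528) after WY14643 and 1.23 (SE 0.33, 2.34-fold, adjusted p = 0.0895) after OA, again with no overlap between genotypes. Without the 3 arrays that went against their label, these adjusted p-values were 0.0192 and 0.0303. The OA call on the lead probeset rested on few mice: the difference stayed between 0.50 and 0.65 with any 1 of the 8 mice left out, but the adjusted p lay between 0.0554 and 0.19 in 7 of these 8 fits, all but the one without wild-type replicate 2.

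After EPA, Slc13a1 read 11.90, 11.81, 12.11, 12.05 and 11.46 in PPARα-null mice, against 12.03, 11.74, 12.04, 11.75 and 12.02 in wild-type mice. After DHA it read 12.34, 12.13, 11.80 and 12.08 in PPARα-null mice, against 12.08, 12.02, 11.84, 12.06 and 11.90 in wild-type mice. The genotypes overlapped under both fats, with a difference of -0.05 (95% CI -0.28 to 0.19) after EPA and 0.11 (95% CI -0.14 to 0.35) after DHA. The lowest of the PPARα-null EPA mice was replicate 5, whose label is in doubt, and without it and wild-type replicate 5 the EPA difference was 0.08 (adjusted p = 0.792). On the second probeset wild-type EPA replicate 5 read 10.63, the highest of all 35 arrays, and PPARα-null EPA replicate 5 read 9.16, the lowest of its group. The EPA difference there was 0.40 with these arrays (adjusted p = 0.698) and 0.87 without them (adjusted p = 0.127).

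Within wild-type mice, Slc13a1 was higher after EPA and DHA than after OA. All 10 wild-type mice given EPA or DHA read 11.74 or more, against at most 11.32 in the 4 given OA and 11.46 in the 4 given WY14643. EPA minus OA was 0.79 (SE 0.12, 1.73-fold, adjusted p = 8.06e-05) and DHA minus OA 0.85 (SE 0.12, 1.80-fold, adjusted p = 3.25e-05), and the second probeset gave 3.41-fold after EPA and 2.94-fold after DHA. In PPARα-null mice the same contrasts were 0.16 (95% CI -0.09 to 0.41, adjusted p = 0.606) for EPA and 0.38 (95% CI 0.12 to 0.64, adjusted p = 0.176) for DHA. On the second probeset EPA minus OA in PPARα-null mice was 0.94 (adjusted p = 0.116), and it was called without the 3 doubted arrays (1.14, adjusted p = 0.0421) and without PPARα-null EPA replicate 5 alone (1.17, adjusted p = 0.0329).

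That the genotypes responded differently was not established. The genotype difference after EPA minus that after OA was -0.62 (95% CI -0.98 to -0.27) and that after DHA minus that after OA was -0.47 (95% CI -0.83 to -0.11), with adjusted p-values of 0.658 and 0.827 in limma. In the order of group means, PPARα-null DHA was highest (12.09 ± 0.22, SD, n = 4), followed by wild-type DHA (11.98 ± 0.11, n = 5), wild-type EPA (11.92 ± 0.16, n = 5), PPARα-null EPA (11.87 ± 0.26, n = 5), PPARα-null OA (11.70 ± 0.14, n = 4), PPARα-null WY14643 (11.59 ± 0.09, n = 4), wild-type OA (11.13 ± 0.19, n = 4) and wild-type WY14643 (11.05 ± 0.28, n = 4). Neighbours in this order differed by less than the larger of their SDs, except for the step between PPARα-null WY14643 and wild-type OA. EPA and DHA shared their OA mice as the comparison group in each genotype.

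**Figure D2:**
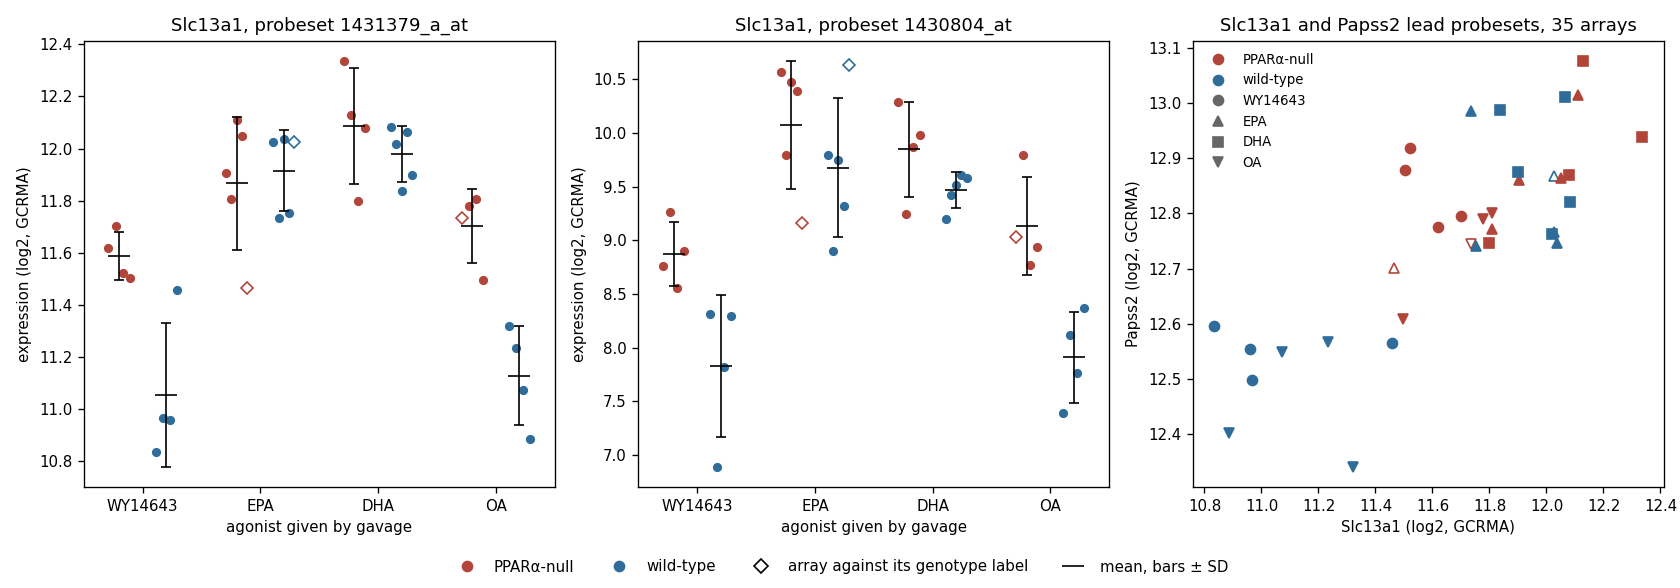
Left and middle, both probesets of Slc13a1 (log2, GCRMA) by agonist, with 1 point per mouse, PPARα-null left of wild-type, and the mean ± SD. Right, Papss2 against Slc13a1 on the lead probesets of the 35 arrays (log2, GCRMA), coloured by genotype and shaped by agonist, where all 8 wild-type mice given WY14643 or OA lie at the lower left (Slc13a1 at most 11.46, Papss2 at most 12.60); open symbols are the 3 arrays that went against their label.

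Slc26a2, a sulphate and anion exchanger known from cartilage and present in gut epithelium, was higher after WY14643 than after OA in both genotypes, the largest change among the 8 genes on the lead probesets. It read 10.87, 10.97, 11.52 and 11.60 after WY14643, against 10.19, 10.52, 9.69 and 10.18 after OA in PPARα-null mice. In wild-type mice it read 11.05, 11.11, 11.48 and 10.69 after WY14643, against 9.99, 9.58, 10.18 and 9.53 after OA. The agonists did not overlap in either genotype. WY14643 minus OA was 1.10 in PPARα-null mice (SE 0.21, 2.14-fold, adjusted p = 0.00045) and 1.26 in wild-type mice (SE 0.21, 2.40-fold, adjusted p = 5.97e-05) in limma, and all 3 probesets were called in both.

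After EPA Slc26a2 averaged 10.47 ± 0.33 in PPARα-null mice and 10.03 ± 0.27 in wild-type mice (SD, n = 5 each), and after DHA 10.70 ± 0.32 in PPARα-null mice (n = 4) and 10.38 ± 0.25 in wild-type mice (n = 5). DHA minus OA was 0.56 in each genotype and was not called (adjusted p = 0.244 in PPARα-null and 0.139 in wild-type mice). Over all 4 agonists weighted alike Slc26a2 was 0.31 higher in PPARα-null mice (SE 0.10, 1.24-fold, adjusted p = 0.0283), though under no single agonist. This call was lost, with adjusted p between 0.0518 and 0.0559, when PPARα-null DHA replicate 3, OA replicate 2 or WY14643 replicate 3 or 4, or wild-type OA replicate 4 or WY14643 replicate 4 was left out, and with no filter on the level (adjusted p = 0.0539).

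Slc26a3, the apical chloride and bicarbonate exchanger whose loss causes chloride diarrhoea in humans, was lower after EPA than after OA in both genotypes. It read 10.02, 10.05, 9.85, 9.81 and 10.02 after EPA, against 10.33, 10.35, 10.26 and 10.44 after OA in PPARα-null mice. In wild-type mice it read 10.09, 9.92, 9.90, 9.97 and 9.89 after EPA, against 10.25, 10.30, 10.30 and 10.29 after OA. The groups did not overlap, and the difference was -0.40 in PPARα-null (SE 0.07, adjusted p = 0.000658) and -0.33 in wild-type mice (SE 0.07, adjusted p = 0.00167), so that the level after OA was 1.32-fold that after EPA in PPARα-null mice and 1.26-fold in wild-type mice. In the PPARα-null mice the call was lost when only the EPA and OA groups entered the fit (adjusted p = 0.0716).

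After DHA Slc26a3 lay between, at 10.12 ± 0.15 in PPARα-null mice (SD, n = 4) and 10.19 ± 0.10 in wild-type mice (n = 5), and neither DHA minus OA nor EPA minus DHA was called. After WY14643 it read 10.15, 10.28, 10.25 and 10.16 in PPARα-null mice, against 10.40, 10.48, 10.32 and 10.43 in wild-type mice. Every PPARα-null mouse lay below every wild-type mouse, but the difference of -0.20 (SE 0.07) had an adjusted p of 0.0881. Probeset 1427547_a_at followed the lead probeset poorly (r = 0.44 over the 35 arrays, a description), and 1421445_at followed it closely (r = 0.86).

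Slc26a6, an apical exchanger of chloride, bicarbonate and oxalate, was called in none of the 16 comparisons. Its group means ran from 11.17 ± 0.20 in wild-type OA mice (SD, n = 4) to 11.52 ± 0.22 in wild-type EPA mice (n = 5). The largest difference, EPA minus OA in wild-type mice, was 0.35 (SE 0.11, adjusted p = 0.0671). Group membership accounted for 34.7% of its variance over the 35 arrays, the least of the 8 lead probesets, against 81.8% for Slc13a1, the most.

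Papss2, the PAPS synthase isoform of liver and cartilage, followed the groups in much the way Slc13a1 did. After WY14643 it read 12.78, 12.80, 12.92 and 12.88 in PPARα-null mice, against 12.60, 12.50, 12.55 and 12.56 in wild-type mice. After OA it read 12.74, 12.79, 12.80 and 12.61 in PPARα-null mice, against 12.34, 12.57, 12.55 and 12.40 in wild-type mice. No wild-type mouse reached the lowest PPARα-null mouse under either agonist, and the difference was 0.29 after WY14643 (SE 0.07, 1.22-fold, adjusted p = 0.00947) and 0.27 after OA (SE 0.07, 1.21-fold, adjusted p = 0.0824), of which only the first was called.

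Within wild-type mice Papss2 read 12.77, 12.98, 12.75, 12.74 and 12.87 after EPA and 12.82, 12.76, 12.99, 13.01 and 12.87 after DHA, all above the OA mice. EPA minus OA was 0.36 (SE 0.07, 1.28-fold, adjusted p = 0.000917) and DHA minus OA 0.43 (SE 0.07, 1.34-fold, adjusted p = 0.000139). The same contrasts in PPARα-null mice were 0.11 (adjusted p = 0.518) and 0.17 (adjusted p = 0.299), and the interactions were not called (adjusted p = 0.795 for EPA and 0.827 for DHA). These Papss2 results rest on 1434510_at alone, since 1421989_s_at and 1421987_at had no call in any of the 16 comparisons and followed it weakly (r = 0.36 and 0.10 over the 35 arrays).

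Across the 35 arrays the lead probesets of Slc13a1 and Papss2 had a Pearson r of 0.79, as the plot of Papss2 against Slc13a1 shows. The r was 0.93 over the 8 group means and 0.28 over deviations from them, which places most of the likeness between groups and little of it between mice of a group. These are descriptions over arrays that share their groups, and no test was made of them. Slc26a2 and Sult1d1 had an r of 0.86 over the 8 group means and -0.31 within groups.

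Papss1, the more widely expressed PAPS synthase, read 9.01, 9.22, 9.05 and 9.13 after WY14643, against 8.79, 8.42, 8.40 and 8.75 after OA in PPARα-null mice. The agonists did not overlap, and the difference was 0.51 (SE 0.19, 1.42-fold, adjusted p = 0.0435). In wild-type mice it read 8.95, 8.94, 8.93 and 8.79 after WY14643, against 8.78, 8.85, 8.69 and 8.73 after OA, which overlapped (difference 0.14, adjusted p = 0.633). The call in PPARα-null mice was fragile. The adjusted p lay between 0.056 and 0.13 without OA replicate 2 or 3 or without any 1 of the 4 WY14643 mice, while the difference stayed between 0.45 and 0.58. It was also lost with no filter on the level (adjusted p = 0.092) and under quantile normalization (adjusted p = 0.0547).

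After the polyunsaturated fats the values of Papss1 in wild-type mice lay below those after OA without a call. EPA minus OA was -0.45 (adjusted p = 0.147) and DHA minus OA was -0.55 (adjusted p = 0.0887), with no overlap between the fats in either case. After DHA it read 8.52, 8.44, 9.54 and 8.20 in PPARα-null mice, against 8.37, 8.69, 7.81, 8.25 and 7.94 in wild-type mice. PPARα-null replicate 3 stood apart there, and the difference of 0.46 (limma, adjusted p = 0.117) was 0.17 without it. The other way, the difference was called in limma without PPARα-null replicate 4 (0.62, adjusted p = 0.0347). It was also called without wild-type replicate 2 (0.58, adjusted p = 0.0408), so the call hung on single mice.

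Sult1b1, a sulphotransferase of phenols and thyroid hormones, was higher in PPARα-null mice after WY14643 and DHA, and higher after WY14643 than after OA in both genotypes. After WY14643 it read 12.32, 12.19, 12.17 and 12.03 in PPARα-null mice, against 11.86, 11.75, 11.74 and 11.79 in wild-type mice. After OA it read 11.57, 11.59, 11.66 and 11.85 in PPARα-null mice, against 11.70, 11.58, 11.44 and 11.32 in wild-type mice. The genotypes were apart after WY14643 and overlapped after OA.

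The genotype difference of Sult1b1 was 0.39 after WY14643 (SE 0.08, 1.31-fold, adjusted p = 0.000899) and 0.16 after OA (SE 0.08, adjusted p = 0.429), and the difference between these was not called (0.23, adjusted p = 0.52). WY14643 minus OA was 0.51 in PPARα-null mice (SE 0.08, 1.42-fold, adjusted p = 6.25e-05) and 0.28 in wild-type mice (SE 0.08, 1.21-fold, adjusted p = 0.00757), with no overlap in either. After DHA it read 11.87, 11.82, 12.01 and 11.69 in PPARα-null mice, against 4 readings of 11.62 and 1 of 11.41 in wild-type mice, a difference of 0.27 (SE 0.07, adjusted p = 0.0257). The adjusted p of the DHA difference was 0.0656 without PPARα-null replicate 1, 0.167 without PPARα-null replicate 3 and 0.0969 without wild-type replicate 5.

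Sult1d1, which sulphates dopamine and other catecholamines in mice, was higher after WY14643 than after OA in both genotypes and had no call between the genotypes. In wild-type mice it read 12.28, 12.52, 12.08 and 12.05 after WY14643, against 11.59, 11.56, 11.24 and 11.12 after OA, with no overlap and a difference of 0.85 (SE 0.17, 1.81-fold, adjusted p = 0.000387). In PPARα-null mice it read 11.99, 12.17, 11.99 and 11.64 after WY14643, against 11.57, 10.99, 11.40 and 11.78 after OA. These overlapped, with a difference of 0.51 (SE 0.17, 1.42-fold, adjusted p = 0.0262) that lost its call, with adjusted p between 0.054 and 0.127, without OA replicate 2 or 3 or WY14643 replicate 1, 2 or 3, and with no filter on the level (adjusted p = 0.0514).

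The second probeset of Sult1d1, 1418138_at, gave 0.73 in PPARα-null mice (adjusted p = 0.000243) and 0.97 in wild-type mice (adjusted p = 3.71e-06) for WY14643 minus OA, without overlap in either. On this probeset alone, DHA minus OA was called in wild-type mice (0.44, SE 0.12, 1.36-fold, adjusted p = 0.0376). The lead probeset gave 0.34 there (adjusted p = 0.326).

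**Figure D3:**
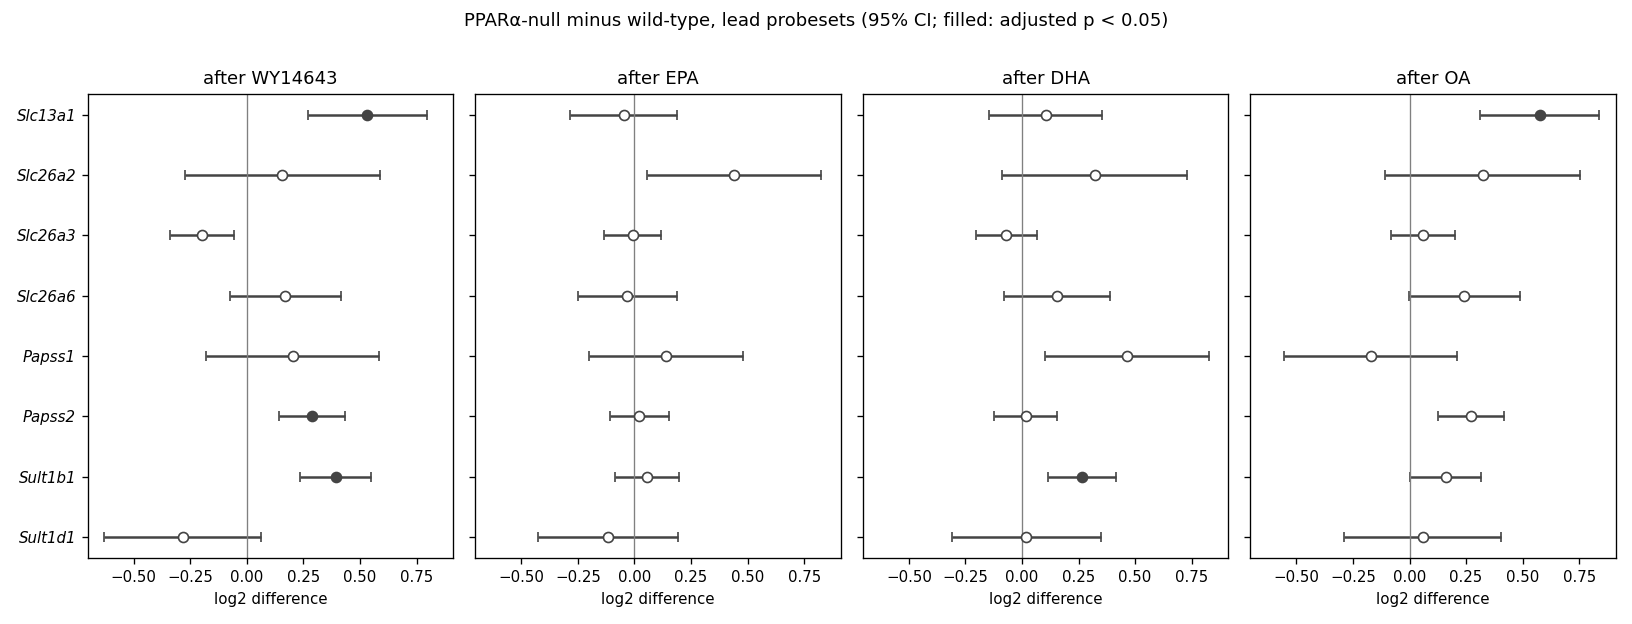
PPARα-null minus wild-type difference (log2, horizontal axis, with 95% CI) of the lead probeset of each gene after each agonist, with filled symbols at an adjusted p under 0.05 in limma. Slc13a1 (0.53), Papss2 (0.29) and Sult1b1 (0.39) are filled after WY14643, no gene after EPA, Sult1b1 (0.27) after DHA and Slc13a1 (0.58) after OA.

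Counted as genes, 3 of the 8 members were called between the genotypes after WY14643 (Slc13a1, Papss2 and Sult1b1), where 7.56% of the 8626 expressed genes were called. None of 8 was called after EPA, where the share was 0% with 1044 genes at an unadjusted p under 0.05, and none without the doubted arrays, where the share was 2.08%. After DHA 1 of 8 (Sult1b1) was called against 8.2%, and after OA 1 of 8 (Slc13a1) against 0.498%. For the mean of the 4 agonists 4 of 8 were called (Slc13a1, Slc26a2, Papss2 and Sult1b1) against 25.7%. Every call between genotypes was higher in PPARα-null mice, and the median difference of the 8 lead probesets over the 4 agonists was 0.15, against 0.01 over all expressed probesets. With 8 genes such counts carry little weight, and nothing particular to the list is read from them.

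Between agonists, 4 of 8 members were called for WY14643 minus OA in PPARα-null mice (Slc26a2, Papss1, Sult1b1 and Sult1d1), where 31.5% of all genes were called, and 3 of 8 in wild-type mice (Slc26a2, Sult1b1 and Sult1d1), where 33.8% were. These shares of members were close to the background. For EPA minus OA 1 of 8 was called in PPARα-null mice (Slc26a3) against 3.15%, and 3 of 8 in wild-type mice (Slc13a1, Papss2 and Slc26a3) against 8.01%. For DHA minus OA 0 of 8 were called in PPARα-null mice against 1.31% (1445 genes at an unadjusted p under 0.05 in limma), and 3 of 8 in wild-type mice (Slc13a1, Papss2 and Sult1d1) against 4.56%. The difference of the genotype differences was called for no member, against 1.3% of all genes for WY14643, 0% for EPA and 0% for DHA, with 1015, 682 and 720 genes at an unadjusted p under 0.05.

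**Figure D4:**
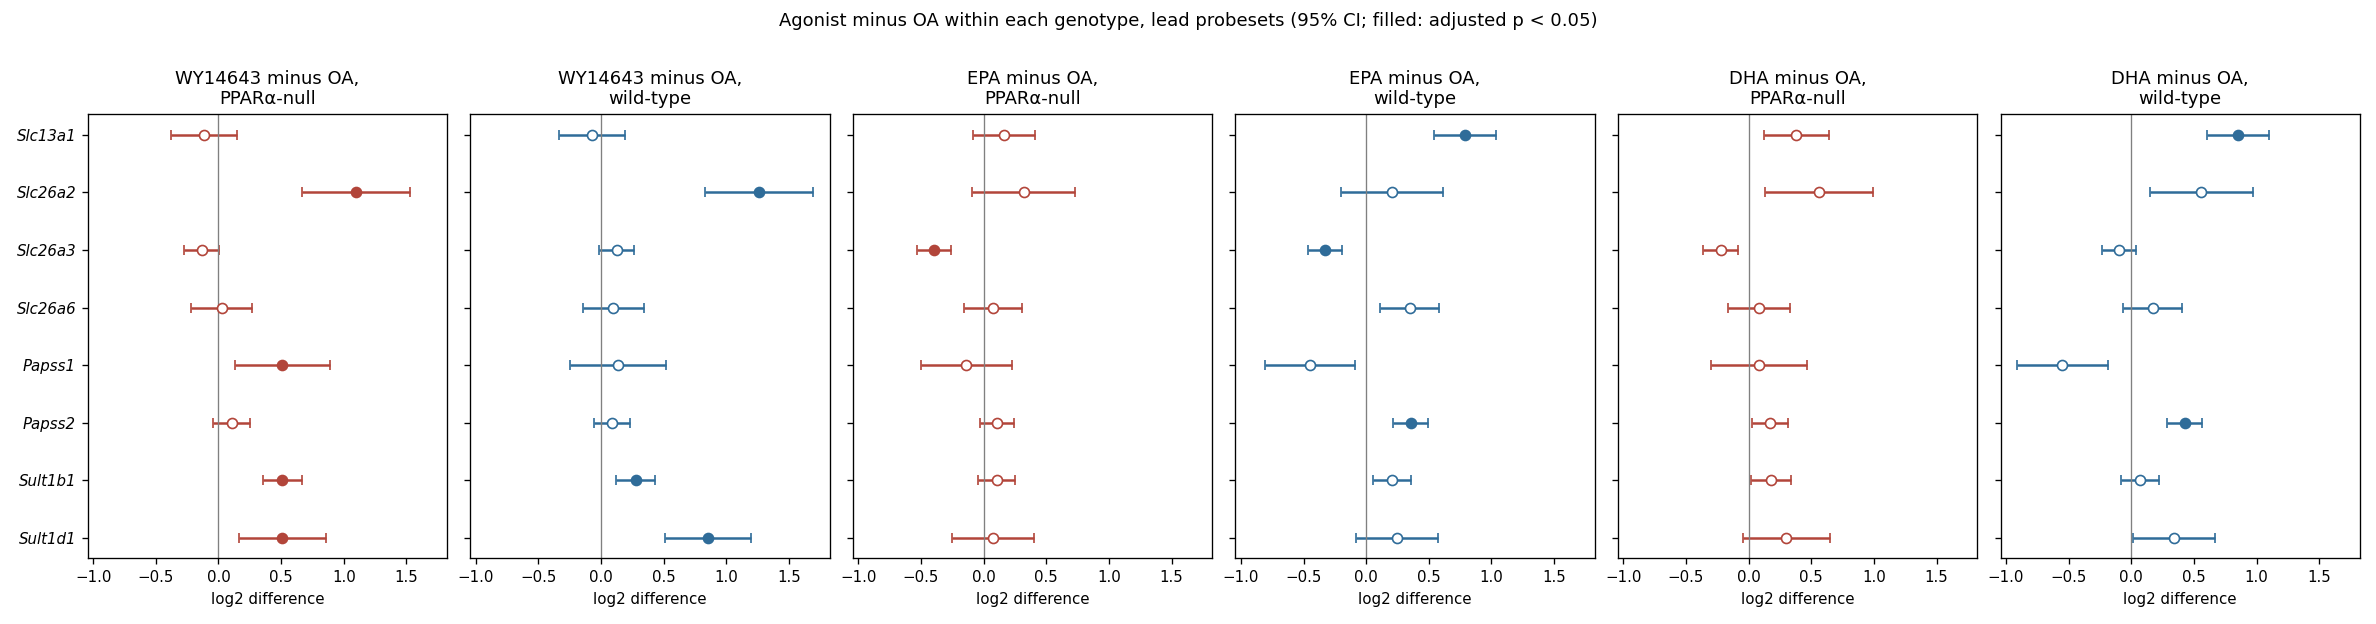
Agonist minus OA difference (log2, horizontal axis, with 95% CI) of the lead probeset of each gene, PPARα-null in red left of wild-type in blue for each agonist, with filled symbols at an adjusted p under 0.05 in limma. Slc26a2 stands out after WY14643 (1.10 in PPARα-null and 1.26 in wild-type mice), Slc13a1 after EPA (0.79) and DHA (0.85) in wild-type mice, and Slc26a3 lies below 0 after EPA (-0.40 in PPARα-null and -0.33 in wild-type mice).

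EPA and DHA, both long-chain omega-3 fatty acids that differ in chain length and in the number of double bonds, were compared at the same volume and time in each genotype, 16 pairs over the 8 lead probesets. No member was called in PPARα-null or wild-type mice, where 0.719% of all genes were called in PPARα-null mice and 0.719% in wild-type mice (1055 and 1458 genes at an unadjusted p under 0.05 in limma). The difference nearest a call was that of Slc26a3 in wild-type mice, -0.23 (95% CI -0.36 to -0.11, adjusted p = 0.0776), with every EPA mouse below every DHA mouse. The widest interval was that of Slc26a2 in PPARα-null mice, -0.24 (95% CI -0.65 to 0.17), and a p that misses the threshold does not show that the fats acted alike.

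The genotype differences were also tested mouse by mouse, with a two-sided exact permutation test on each lead probeset under each agonist (32 tests). Groups of 4 and 4 cannot go below 0.0286, and this smallest p was reached after WY14643 by Slc13a1, Slc26a3, Papss1, Papss2 and Sult1b1 and after OA by Slc13a1 and Papss2. Sult1b1 reached the smallest p of 0.0159 after DHA in the exact test. The smallest p means only that the groups did not overlap, and the share of all expressed genes that reached it was not computed. Adjusted over the 32 exact tests, these p-values were all 0.114. With so few mice the adjusted values are bounded by the smallest p and say little by themselves.

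Several cell type and segment markers moved with the same groups. After WY14643 against OA, the summed level of 11 pancreatic acinar markers was 12.81 to 14.42 after WY14643 and 16.24 to 17.26 after OA in PPARα-null mice (11 of 11 lower), and 13.70 to 15.69 after WY14643 and 14.73 to 16.65 after OA in wild-type mice (1 of 11 lower). In PPARα-null mice it was also lower after EPA (13.63 to 16.32) and DHA (14.37 to 15.97) than the median of 17.07 after OA, with no acinar marker called, and in wild-type mice it spanned 12.08 to 16.71 after EPA and 13.45 to 17.25 after DHA. After OA the genotypes overlapped, with medians of 17.07 in PPARα-null and 15.80 in wild-type mice and no acinar marker called. Of 8 crypt proliferation markers, 6 were lower after WY14643 in PPARα-null and 7 in wild-type mice. Of 4 expressed ileal markers 2 were lower in PPARα-null and 3 in wild-type mice, and of 7 proximal markers 3 were higher in PPARα-null and 2 in wild-type mice. For WY14643 minus OA, 31.5% of all genes were called in PPARα-null and 33.8% in wild-type mice, in either direction.

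Between genotypes after WY14643, the summed proximal markers were 13.87 to 13.94 in PPARα-null mice and 13.46 to 13.69 in wild-type mice (2 of 7 called, both higher), and 4 of 9 enteroendocrine markers, some of them shared with the proximal list, were higher in PPARα-null mice. In this comparison 7.56% of all genes were called, in either direction. After OA the ileal sum was 13.65 to 13.86 in PPARα-null mice and 13.89 to 14.19 in wild-type mice, with no marker called. The summed enterocyte markers in wild-type mice were 16.71 to 16.80 after EPA, 16.68 to 16.85 after DHA and 16.84 to 16.87 after OA. The part of acinar tissue, crypts and segments in the results on the 8 genes was not tested.

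The other genes of sulphate handling were counted from lists of the pathway. Of 10 other sulphate and Slc26 transporters on the array 2 were expressed, and Slc35b3, which carries PAPS into the Golgi, was higher after EPA than after OA in wild-type mice (0.78, SE 0.14, adjusted p = 0.000742). Of 10 other cytosolic sulphotransferases 3 were expressed. Sult1a1, a phenol sulphotransferase, was higher in PPARα-null than in wild-type mice over the 4 agonists (0.51, SE 0.11, adjusted p = 0.00147) and lower after EPA than after DHA in PPARα-null mice (5.95 against 6.95, SE of the difference 0.22, adjusted p = 0.0235).

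Of 31 Golgi sulphotransferases 9 were expressed. Gal3st2, which sulphates galactose on glycans, was higher in limma after WY14643 than after OA in PPARα-null mice (0.60, adjusted p = 0.000503) and in wild-type mice (0.85, adjusted p = 5.61e-06). Hs3st1, which sulphates heparan sulphate, was lower after WY14643 than after OA in both genotypes. Its means were under 32 after WY14643 in both genotypes, and after OA in PPARα-null mice as well, so the sizes are uncertain. For WY14643 minus OA 1 of 9 rose and 2 fell in PPARα-null mice and 2 rose and 2 fell in wild-type mice. The list median was 0.23 in PPARα-null mice (0.04 over all expressed probesets) and 0.05 in wild-type mice (-0.01 over all expressed probesets). Chst4, which fell in PPARα-null mice (limma, adjusted p = 0.0159), lost its call there without the doubted arrays (adjusted p = 0.0548). Over all genes 31.5% were called in PPARα-null and 33.8% in wild-type mice, so these counts were near the background.

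Of 15 sulphatases and phosphatases of PAP, the by-product of sulphation, 9 were expressed. Arsg, a lysosomal sulphatase, was called in each contrast of another agonist with OA, which share their OA mice, but not for EPA minus DHA in either genotype. On 1452277_at it was lower after WY14643 than after OA (-0.99 in PPARα-null and -0.88 in wild-type mice), lower after EPA (-1.44 in PPARα-null and -1.73 in wild-type mice) and lower after DHA (-1.12 in PPARα-null and -1.54 in wild-type mice), with adjusted p-values from 5.37e-08 to 0.000933. Bpnt1, which breaks down PAP, was higher in PPARα-null than in wild-type mice after WY14643 (0.22, adjusted p = 0.0464), and Sulf2, an extracellular heparan sulphatase, was lower (-0.72, adjusted p = 2.58e-05).

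Of 12 genes that make sulphate from cysteine and sulphide 8 were expressed. Ethe1, a mitochondrial dioxygenase of persulphides, was lower in PPARα-null than in wild-type mice after WY14643 (8.28 against 9.06, difference -0.79, SE 0.14, adjusted p = 0.000358). It was also the only gene of these lists, the 8 members included, called for a change of its genotype difference between WY14643 and OA (-0.85, SE 0.20, adjusted p = 0.0287). A missed call does not show that the other genes kept the same difference. Sqor, which oxidises sulphide, was higher in PPARα-null mice after WY14643 (0.46, adjusted p = 0.000439). Got2, an aminotransferase of the cysteine pathway, was lower (-0.47 on 1417715_a_at, adjusted p = 0.000561), and Cth, which makes cysteine, was higher (0.36, adjusted p = 0.0426), so that 2 of 8 rose and 2 fell, where 7.56% of all genes were called.

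The genes whose lead probesets followed each member most closely over the 35 arrays, among 8626 expressed genes, were Nudt5 for Slc13a1 (Pearson r = 0.90), Insr for Slc26a2 (r = 0.95), Tor1a for Slc26a3 (r = 0.81), Upp1 for Slc26a6 (r = 0.86), Aldh1b1 for Papss1 (r = 0.90), Sf1 for Papss2 (r = 0.84), Cript for Sult1b1 (r = 0.90) and Usp3 for Sult1d1 (r = 0.85). Sf1 was also the third closest to Slc13a1 (r = 0.82). Within groups the r with the closest gene was 0.87 for Slc26a2, 0.85 for Papss1 and 0.84 for Slc26a6, but 0.62 for Slc13a1, 0.48 for Papss2 and 0.29 for Slc26a3. These values are descriptions, since the arrays share their groups.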

How the data were processed

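RNA of 35 mouse small intestines was measured, 1 mouse per array, in 8 groups taken from the labels. The authors computed log2 expression values with GCRMA (background correction, normalization between arrays and summary per probeset), and these deposited log2 values were used unchanged. No GCRMA version is given in the sources used here. Of 45101 probesets 64 were controls. Array medians ran from 2.83 to 2.88 (log2), and on each array 31.6 to 32.4% of probesets lay above 32. The number of arrays limits the precision, and differences under 32 are of uncertain size. Gene symbols came from the platform's probe table, where 34945 probesets had 1 symbol, 932 several and 9160 none, and only probesets of 1 symbol were used.

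With limma 3.58.1 (R 4.3.3), the means of the 8 groups were estimated together from the 35 arrays, and the empirical Bayes step used an intensity trend. Benjamini-Hochberg adjustment of two-sided p-values ran over the 15384 probesets with a mean above 32 in at least 1 group. A gene was called when at least 1 expressed probeset passed an adjusted p of 0.05, over 8626 expressed genes. SE and CI are those of the contrast, and SD is between mice. The genotype comparison after WY14643 was first tested on simulated data with known differences, and those after EPA, DHA and OA were checked there for false calls. The mean of the agonists, the agonist contrasts and the interactions were not tried in this way. Exact permutation tests used scipy in Python.

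The 8 members, the pathway and marker lists and the alternatives were chosen with earlier results of these data known, Slc13a1 among them, so the lists are not independent evidence. Named were all members, up to 5 called genes of each other list and comparison, and the genes most like each member.

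Alternatives were no filter, a limit of log2 6, no intensity trend, quantile normalization, centring of array medians, 32 added to linear values before log2, 1 probeset per gene, array weights, a replicate block, only the groups compared, each array left out and, chosen after the data were seen, leaving out the 3 arrays that went against their genotype label.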

Additional observations from a re-analysis of the deposited data

Results flagged for a closer look

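Of 128 groups of 4 or 5 arrays on the 16 expressed probesets, 4 held an array whose gap to its nearest neighbour took up more of the group's range than Dixon's limit allows, and chance alone flags about 1 in 20 groups. Sult1b1 read 11.41 in wild-type DHA replicate 5, below the other 4 mice at 11.62. Papss1 read 8.79 in wild-type WY14643 replicate 4, below the other 3 mice at 8.93 to 8.95. On secondary probesets, Slc26a2 (1421145_at) read 6.98 in PPARα-null EPA replicate 2 and Slc26a3 (1427547_a_at) read 8.52 in wild-type EPA replicate 2. No interaction of genotype and agonist was called for a member.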

How the results depend on the processing

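Over the lead probesets and the second probeset of Slc13a1, 36 differences were called as reported or under at least 1 alternative, and they kept their sign in all 849 refits, of which 790 left the call as it was, 39 lost a call and 20 gained a call. Counts of members called moved by over 1.5 times, or with 1 array left out, in these cases. After DHA the genotype count of 1 was 0 with no filter, under the replicate block and with only the groups compared, and 0 to 2 with 1 array left out. After OA the genotype count of 1 was 0 with no filter, with no intensity trend, under the replicate block and with only the groups compared, and 0 to 1 with 1 array left out. For EPA minus OA in PPARα-null mice the count of 1 was 0 with only the groups compared, 2 without the 3 doubted arrays and 1 to 2 with 1 array left out. For DHA minus OA, array weights gave 1 in place of 0 in PPARα-null mice and 5 in place of 3 in wild-type mice, where 1 array left out gave 2 to 4. With 1 array left out the count was 3 to 4 for the genotypes after WY14643, 4 to 5 for their mean, 3 to 4 for WY14643 minus OA in PPARα-null mice and 3 to 4 for EPA minus OA in wild-type mice. Smaller moves were from 3 to 4 between genotypes after WY14643 (a limit of log2 6, centring, 32 added before log2, array weights), from 4 to 6 for the mean of the agonists (array weights), from 4 to 3 for WY14643 minus OA in PPARα-null mice (no filter, quantile normalization), from 3 to 4 for EPA minus OA in wild-type mice (array weights, only the groups compared) and from 3 to 2 for DHA minus OA in wild-type mice (no filter, 1 probeset per gene, replicate block, only the groups compared).

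Under the replicate block Slc13a1 after OA had an adjusted p of 0.0549 and Sult1b1 after DHA 0.0512, and no other call of a lead probeset changed. Deviations of mice with the same number had an r over 0.1 in 6 of 17 pairs (-0.44 to 0.55). After WY14643 the 4 pairs were all above 0 (0.29, 0.34, 0.55 and 0.09), and after OA all 4 were below 0. Not every pair passed 0.1 under any agonist, so the numbers were not taken as pairs.

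Counts of all genes called between genotypes depended more on the setting. After WY14643 the 652 genes became 2508 with array weights, after EPA the 0 genes became 179 without the 3 doubted arrays, after DHA the 707 became 425 with no filter and 234 with only the groups compared, and after OA the 43 became 27 with no filter, 66 on log2 of the linear value plus 32, 78 with array weights, 11 with only the groups compared and 153 without the doubted arrays. In PPARα-null mice EPA minus OA (272) gave 179 with no filter and 53 with only the groups compared, DHA minus OA (113) gave 69 and 35, and EPA minus DHA (62) gave 34, 1 and, with array weights, 41. In wild-type mice DHA minus OA (393) gave 667 with array weights, and EPA minus DHA (62) gave 146 with array weights, 20 with only the groups compared and 37 without the doubted arrays. With 1 array left out, the genotype counts were 424 to 669 after WY14643 (lowest without wild-type replicate 2), 0 to 34 after EPA (highest without PPARα-null replicate 5), 208 to 1024 after DHA (lowest without PPARα-null replicate 3) and 5 to 74 after OA (lowest without PPARα-null replicate 4). In PPARα-null mice they were 146 to 348 for EPA minus OA, 40 to 148 for DHA minus OA and 32 to 81 for EPA minus DHA, in wild-type mice 247 to 403 for DHA minus OA and 17 to 95 for EPA minus DHA, and 64 to 123 for the WY14643 interaction and 0 to 1 for that of DHA. The interaction for WY14643 (112) gave 233 with array weights, and that for DHA (0) gave 1 on log2 of the linear value plus 32 and 2 without the doubted arrays. The causes were not tested, beyond the fewer arrays or other probesets that a setting uses by construction.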

Other observations

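Genes of serotonin and catecholamine handling, whose substrates are sulphated in the gut, were counted on the same arrays. Of 8 on the array 7 were expressed. Slc6a4, the serotonin transporter, was higher in PPARα-null than in wild-type mice after WY14643 (10.05 against 9.58, difference 0.47, SE 0.10, adjusted p = 0.00163) and after DHA (0.41, SE 0.09, adjusted p = 0.0065) in limma. Tph1, which starts serotonin synthesis, was higher after WY14643 (0.72, SE 0.19, adjusted p = 0.0161) and stands in the enteroendocrine marker list as well. Ddc, which makes both dopamine and serotonin, was lower in PPARα-null mice after DHA (-0.86, SE 0.14, adjusted p = 0.000879).

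The monoamine oxidases Maoa and Maob, which break these amines down, were higher after WY14643 than after OA, Maoa by 0.53 in PPARα-null mice (adjusted p = 0.00386) and 0.55 in wild-type mice (adjusted p = 0.0023), and Maob by 0.77 in PPARα-null mice (adjusted p = 0.00193) and 0.48 in wild-type mice (adjusted p = 0.0375). In these contrasts 31.5% of all genes were called in PPARα-null and 33.8% in wild-type mice. Slc6a3, the dopamine transporter, was lower than after OA in every agonist contrast called, with means under 32 after the other agonists, so that the size is uncertain.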
